A study of Mus musculus with 18 samples.

Results

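In cultured bone marrow (BM) mesenchymal stromal cells (MSCs), the difference between the Pot1a genotypes was compared between week 1 and week 4 after Cre. The comparison used 12 of the 18 libraries of the series, 3 in each of 4 groups. A gene was taken as a member when the log2 difference between genotypes at week 4 was not equal to that at week 1, by a test of the interaction of genotype and week over all genes with an adjusted p under 0.05. Of 13169 genes tested, 942 (7.15%) were members. The interaction of 537 genes (4.08%) was positive, meaning that the libraries labelled Δ/Δ moved up relative to wt/wt between the weeks, and that of 405 genes (3.08%) was negative.

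The cells came from the femurs and tibiae of C57BL/6 mice aged 4 to 6 months that were Pot1a wild/wild (wt/wt) or Pot1a flox/flox, and every mouse of both genotypes carried a flox-stop-flox tdTomato reporter. CD51+/PDGFRα+ cells were sorted on day 7 of culture. The cells of all 4 groups, wt/wt included, were then exposed to Cre in membrane vesicles (gesicles) at 10 μL per well for 12 h, and tdTomato+ cells were sorted again after 48 h. The Pot1a flox/flox cells so treated are the libraries labelled Δ/Δ. There was no group without Cre, tdTomato marks Cre activity at the reporter and not at Pot1a, and the labels do not say which libraries share a mouse, so p-values measure the spread between libraries.

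POT1a is a subunit of shelterin, the protein complex that protects telomeres. It binds the single-stranded telomere repeat and represses DNA damage signals. MSCs of the BM give rise to osteoblasts, adipocytes and chondrocytes and support blood-forming cells with secreted and surface factors. An interaction asks a different question from a comparison at one week: it separates a genotype difference that was there from the start from one that came, went or turned over during culture.

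Pot1a itself (chr6:25743940-25809277, mm10) showed no lower level at either week in cells that carry the Δ/Δ label. It had 34.3, 33.8 and 36.6 CPM (counts scaled by library size) in the 3 wt/wt libraries of week 1 and 31.1, 37.9 and 34.6 CPM in their counterparts. In week 4 it had 37.8, 33.7 and 33.2 CPM in wt/wt and 47.9, 46.3 and 42.8 CPM in the other genotype. The groups overlapped at week 1 and not at week 4, where the libraries labelled Δ/Δ were the higher, with a log2 fold change of 0.39 (adjusted p = 0.0298). The interaction was 0.40 on the log2 scale (standard error 0.15, adjusted p = 0.167) and did not pass the test. A count per gene takes in reads of every exon, the deleted part cannot be told apart in it, and the groups are named by their labels throughout.

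Libraries held 12807832 to 90717232 counts (median over the 12, 26643718). Some markers of other cells were at 0 counts in every library. They were 4 of 18 macrophage and leukocyte genes (Tyrobp, C1qa, C1qc and Aif1), 3 of 9 B lymphoid genes and 5 of 10 erythroid genes. No gene of the osteoclast, endothelial and Schwann cell lists was at 0 throughout. These lists summed to 199 to 298, 6.4 to 13.5 and 175 to 495 CPM per library. The macrophage and leukocyte list of 18 genes summed to 12.4 to 28.9 CPM per library, while the list of 20 mesenchymal stromal markers summed to 3334 to 5070 CPM. Libraries of replicate 1 stood apart together at week 4: their deviations from the group means correlated across genes (r = 0.636 between wt/wt and the library labelled Δ/Δ), and both were low in Xist, with 10.7 and 11.1 CPM against 17.8 to 30.2 CPM in the other 10 libraries. Without the wt/wt library of that pair, 1248 genes passed the interaction test in place of 942. Without the library labelled Δ/Δ of the pair, 795 passed.

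Most of the genotype effects that differed between the weeks appeared late. Of the 942 genes, 825 (6.26% of genes tested) were called between genotypes at week 4 and not at week 1, 474 with a positive and 351 with a negative interaction. For 554 of the 825, the 95% interval of the week 1 difference also lay within 1 of 0 on the log2 scale, and for the others a week 1 difference of 2-fold or more was not excluded by the data. The effect vanished, that is, was called at week 1 and not at week 4, for 20 genes (0.152%). It reversed, called at both weeks with opposite sign, for 23 genes (0.175%). In 11 more (0.0835%) it grew or shrank in the same direction, and in 63 neither week passed on its own. Genotype calls over all genes numbered 134 (1.02%) at week 1 and 2062 (15.7%) at week 4. The vanishing and reversing sets rest on the week 1 calls and moved with single libraries. Leaving out wt/wt replicate 1 of week 1 gave 49 vanishing genes and leaving out any other library of week 1 gave 8 to 13, while leaving out wt/wt replicate 1 of week 4 gave 37. Reversing genes numbered 43 without wt/wt replicate 1 of week 4, 14 without its replicate 3, 14 and 9 without wt/wt replicates 2 and 3 of week 1, and 12, 8 and 5 without replicates 1, 2 and 3 labelled Δ/Δ of week 1.

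**Figure D1:**
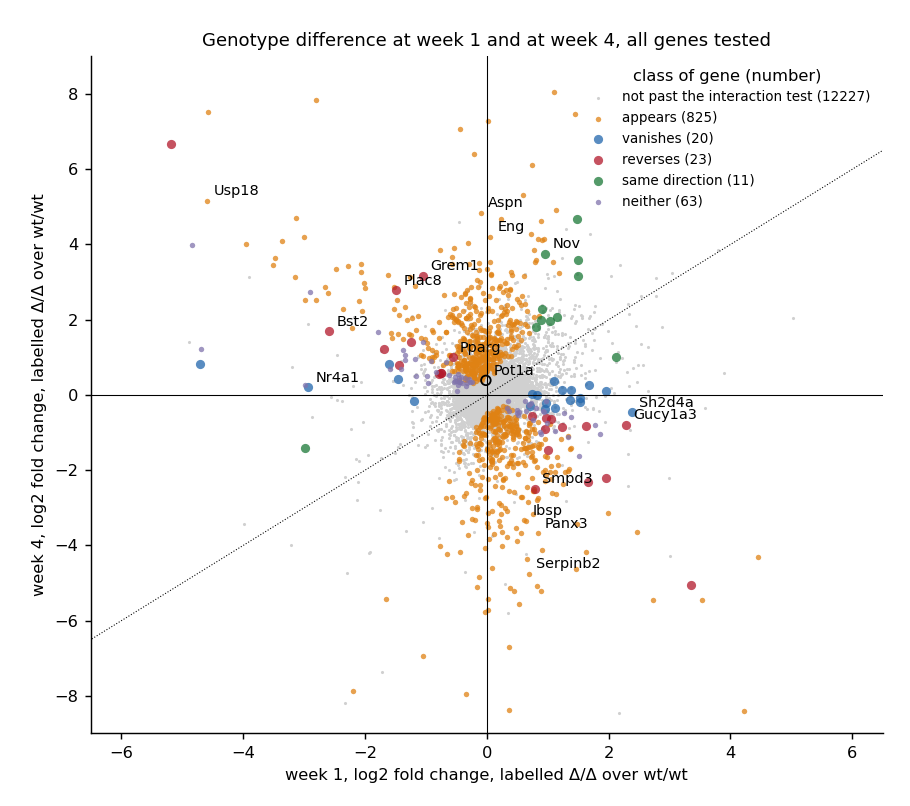
Genotype difference at week 1 (horizontal axis) and at week 4 (vertical axis), as the log2 fold change from wt/wt to the Δ/Δ label, for each gene tested (3 genes lie outside the axes). The colour gives the class, the dotted line equal differences at both weeks and the open circle Pot1a. The 825 orange genes stretch along the vertical axis, and the 23 red genes lie in the upper left and lower right corners.

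The same 942 genes can be read as changes over time. In 291 of them the level changed from week 1 to week 4 only in wt/wt by the test of each change, in 295 only in the libraries labelled Δ/Δ, in 173 it changed in both in opposite directions, and in 181 in both in the same direction by unequal amounts. In 2 genes neither change passed. The interaction is also the difference between these changes, so that low number follows from how the genes were picked. Over all genes tested, 34% changed with time in wt/wt and 35.1% with the label Δ/Δ.

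Interferon-stimulated genes had the largest median interaction of the gene lists. These are genes that cells turn on after interferon is sensed, through a complex that holds STAT2 and IRF9 at a DNA element called ISRE, and their products block viruses. Of 51 members tested, 40 (78.4%, against 4.08% over all genes) had a positive interaction that passed and none a negative one. The median was 3.23 on the log2 scale against 0.01 over all genes tested. At week 1 the median difference between genotypes was -1.53, with 3 members lower (0.266% over all genes) and none higher. At week 4 it was 1.65, with 37 higher (9.2% over all genes) and none lower. Over time, 22 of the 51 fell in wt/wt (16.1% over all genes) and none rose, while 43 rose in the libraries labelled Δ/Δ (18.8%) and none fell.

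Usp18, a protease that removes ISG15 from proteins and limits interferon receptor signalling, had 20, 8.46 and 71.8 CPM in the wt/wt libraries of week 1 (replicates 1, 2 and 3) and 0.726, 1.66 and 1.61 CPM in those labelled Δ/Δ. At week 4 it had 2.32, 0.628 and 1.28 CPM in wt/wt and 103, 4.54 and 34.9 CPM in those labelled Δ/Δ. So wt/wt was high at week 1 and the libraries labelled Δ/Δ were high at week 4, the groups did not overlap at either week, and the high groups varied widely among their own libraries. Its interaction was 9.77 (standard error 1.54, adjusted p = 0.00186), made up of -4.60 at week 1 (adjusted p = 0.0683) and 5.17 at week 4 (adjusted p = 0.00619). Ifit1, which binds foreign RNA caps, had 46.2, 8 and 61.3 against 2.36, 2.43 and 2.61 CPM at week 1 and 7.85, 2.51 and 5.57 against 170, 12.8 and 70.3 CPM at week 4, wt/wt first. Its interaction was 7.98 (standard error 1.26, adjusted p = 0.00187). Oasl2, Rtp4, Isg15, Ifi44, Ifit3 and Trim30a had interactions of 7.45, 7.83, 6.96, 6.29, 5.53 and 5.33. In Ifit3 the groups of week 4 overlapped.

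The week 1 part of these genes mostly did not pass by itself, so they are counted as appearing. Bst2 and Oas1a passed at both weeks with opposite signs, as did Slfn5, an interferon-raised member of the Schlafen family that was not on the list. Bst2 (tetherin, which holds budding virus at the cell surface) had 30.2, 22.9 and 98.3 CPM in wt/wt and 7.99, 6.91 and 10.1 CPM with the label Δ/Δ at week 1. At week 4 it had 16.6, 20.1 and 22.3 CPM in wt/wt and 88.5, 26.8 and 76.3 CPM with the label Δ/Δ. Its log2 fold changes were -2.59 (adjusted p = 0.0426) and 1.70 (adjusted p = 0.0408), and the interaction was 4.29 (standard error 0.74, adjusted p = 0.00333). For Slfn5 they were -1.69 and 1.22. Oas1a, a synthetase of the signal that activates RNase L, had 4.59, 4.17 and 19.6 against 0.423, 0.166 and 0.213 CPM at week 1, and at week 4 only 1 count in each wt/wt library against 22 to 440 counts in those labelled Δ/Δ, so no fold is given. Oas1 genes, like the Ifit genes, are close paralogs, and reads that they share cannot be assigned with certainty. Ifi203 (chr1:173920400-173942866), a sensor-family gene, showed a difference that vanished, with a log2 fold change of -4.71 at week 1 (adjusted p = 0.00625) and 0.82 at week 4 (adjusted p = 0.401).

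The sequences just before the start site of 4 of these genes are shown because the ISRE is the element they are known to share. The letters searched, GAAA followed by any 2 bases and GAAA again, or on the other strand TTTC, any 2 bases and TTTC, are in capitals with the bases between them, and overlapping matches run together. All are 200 bases long, 5′ to 3′ on the strand of the gene, from RefSeq (GRCm38.p6): Ifit1 at chr19:34640689-34640888 (+), Isg15 at chr4:156200819-156201018 (-), Bst2 at chr8:71537473-71537672 (-) and Oas1a at chr5:120907526-120907725 (-).
Ifit1: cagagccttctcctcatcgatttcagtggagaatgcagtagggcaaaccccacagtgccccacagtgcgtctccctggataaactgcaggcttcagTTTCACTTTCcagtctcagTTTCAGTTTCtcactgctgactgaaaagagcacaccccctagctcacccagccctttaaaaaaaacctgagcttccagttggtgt
Isg15: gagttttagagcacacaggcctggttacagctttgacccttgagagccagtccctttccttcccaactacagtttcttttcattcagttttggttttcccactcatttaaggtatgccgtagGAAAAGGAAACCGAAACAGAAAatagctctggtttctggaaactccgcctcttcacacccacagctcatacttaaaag
Bst2: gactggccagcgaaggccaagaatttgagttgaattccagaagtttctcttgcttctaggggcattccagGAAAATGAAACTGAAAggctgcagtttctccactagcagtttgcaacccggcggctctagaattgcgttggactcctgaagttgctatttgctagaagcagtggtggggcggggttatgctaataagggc
Oas1a: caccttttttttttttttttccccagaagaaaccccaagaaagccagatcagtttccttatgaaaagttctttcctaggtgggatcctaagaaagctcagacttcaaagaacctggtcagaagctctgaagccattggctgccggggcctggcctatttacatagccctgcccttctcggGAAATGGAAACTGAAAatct

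The first match lay 104 bases before the start in Ifit1, 78 in Isg15, 130 in Bst2 and 20 in Oas1a, with 2, 3, 2 and 2 matches in the stretches shown. Over whole windows of 300 bases, from 250 before to 50 after a start, 22 of the 38 interferon-stimulated genes that had a promoter in the table held a match on either strand (57.9%), against 364 of 9980 genes tested (3.65%) and 1131 of all 32851 promoters (3.44%). A match is a stretch of letters and not a measured binding site. Of the mature osteoblast genes described below, 2 of 23 held one.

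The high values were not shared evenly by replicates. Within wt/wt at week 1, replicate 3 was the highest for 43 of the 51 genes and replicate 2 the lowest for 45. Within the libraries labelled Δ/Δ at week 4, replicate 1 was the highest for 45 and replicate 2 the lowest for 48. The summed level of the list was 1323, 1005 and 2565 CPM in wt/wt and 821 to 875 CPM in its counterparts at week 1, and 997 to 1098 CPM in wt/wt and 3594, 1285 and 2475 CPM with the label Δ/Δ at week 4. With the 2 highest libraries left out (wt/wt week 1 replicate 3 and Δ/Δ week 4 replicate 1), 31 of the 51 genes passed, with a median of 2.28. The lowest of the high libraries were still above the highest of the low ones for 32 genes at week 1 (62.7%, lower with the label Δ/Δ, against 10.8% of all genes tested) and for 37 at week 4 (72.5%, higher, against 15.5%). What sets the levels of single libraries was not tested.

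**Figure D2:**
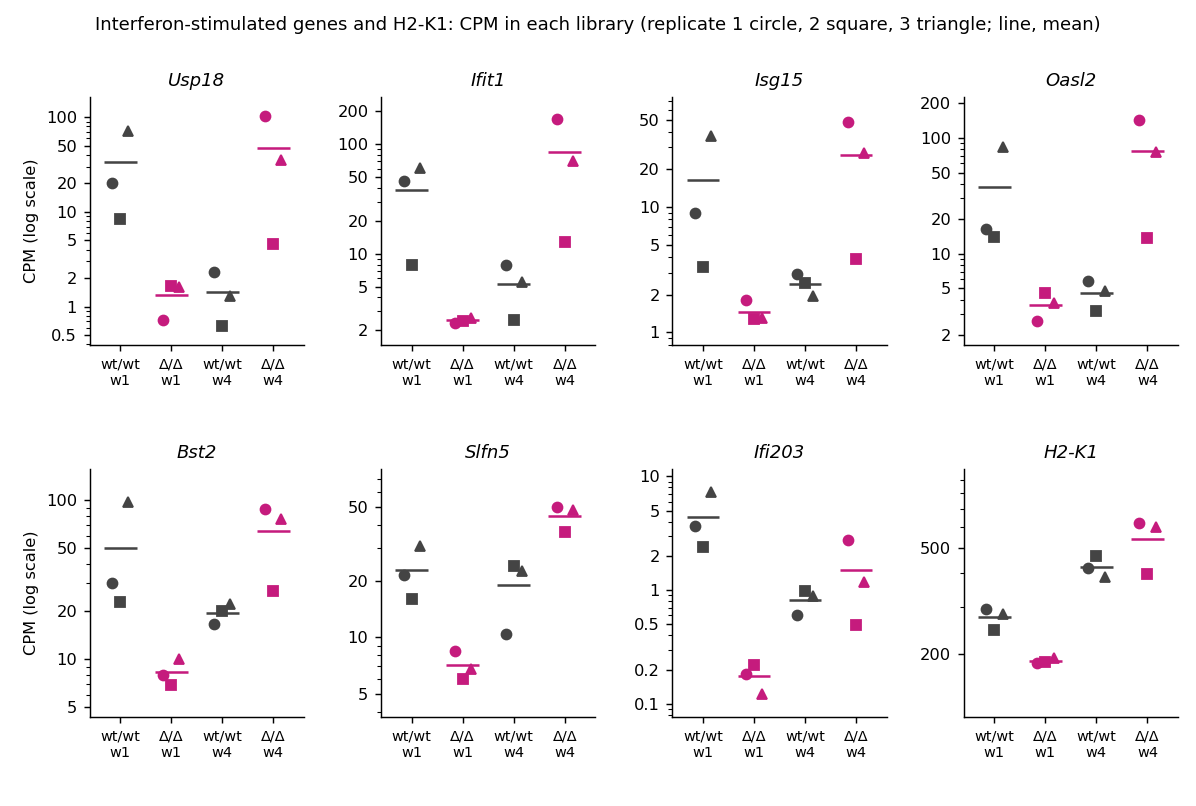
CPM (log scale) of 7 interferon-stimulated genes and of H2-K1 in each of the 12 libraries, with a line at the mean of each group of 3. Wt/wt (grey) is above the libraries labelled Δ/Δ (pink) at week 1 and below them at week 4 in Usp18, Ifit1, Isg15, Oasl2, Bst2 and Slfn5, with replicate 2 the lowest of the pink group at week 4.

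The class I antigen presentation genes, which interferon also raises, passed the adjusted threshold at a share near that of all genes. Of 19 tested, 1 (5.26%, against 4.08% over all genes) had a positive interaction (H2-K1, a classical class I heavy chain, 0.89, adjusted p = 0.0244) and 1 (5.26%, against 3.08%) a negative one (H2-T24, a nonclassical class I gene named after its value was seen, -1.34, adjusted p = 0.0451, lost in 15 of 21 alternatives), and the median was 0.67. Without replicate 2 labelled Δ/Δ of week 4, the library lowest in interferon-stimulated genes of its group, 10 of the 19 were positive, and leaving out other single libraries gave 0 to 5. H2-K1 lost its call in 10 of 21 alternatives. At an unadjusted p under 0.05, 15 of the 19 passed, against 2427 of all 13169 genes tested. With time, 17 of the 19 rose with the label Δ/Δ and 9 in wt/wt (18.8% and 17.9% over all genes). Class I genes are near-identical copies, and their reads may be split between them.

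Outside the interferon genes, the effect also reversed for single genes of several roles. It reversed for 1 of 19 adipocyte transcription factors (Pparg) and 0 of 33 genes of lipid uptake and storage. In the TGF-β and BMP pathway it did so for 3 of 51 genes, against 0.175% of all genes tested. Among the reversing genes with a positive interaction, wt/wt was higher at week 1 and lower at week 4. Pparg (chr6:115360879-115490404), a nuclear receptor and the main switch of fat cell formation, had 131, 135 and 138 CPM in wt/wt and 88.1, 91.5 and 94.2 CPM with the label Δ/Δ at week 1. In week 4 it had 74.5, 70.9 and 57.5 CPM in wt/wt and 135, 137 and 134 CPM with the label Δ/Δ. It fell with time in wt/wt by 0.99 (adjusted p = 1.31e-05) and rose in the libraries labelled Δ/Δ by 0.57 (adjusted p = 9.82e-04), both on the log2 scale. The interaction was 1.56 (standard error 0.14, adjusted p = 4.59e-05), and the groups did not overlap at either week.

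Grem1 (Gremlin 1), a secreted antagonist of BMPs, had 12.4, 10.2 and 8.92 against 6.17, 4.09 and 5.08 CPM at week 1 and 1.79, 1.79 and 1.67 against 12, 15.2 and 20 CPM at week 4, wt/wt first. It was lower with the label Δ/Δ in every library of week 1 and higher in every library of week 4, with an interaction of 4.22 (standard error 0.32, adjusted p = 8.80e-06). Plac8, a small cysteine-rich protein linked to adipocyte differentiation, had 34.0, 22.5 and 28.1 against 9.32, 10.5 and 10.4 CPM at week 1 and 0.822, 0.718 and 0.957 against 6.02, 6.22 and 5.24 CPM at week 4. Its level fell in both genotypes, by 5.06 in wt/wt and by 0.80 with the label Δ/Δ on the log2 scale, and the unequal fall turned the order over (interaction 4.27, standard error 0.26, adjusted p = 3.33e-06). Ptgs1 (COX-1, which makes prostaglandin precursors), Adgrg2 (an adhesion receptor) and Id1 (an inhibitor of bHLH factors and target of BMP) had interactions of 1.33, 1.33 and 1.32. Sncg (γ-synuclein) had 2.23 and Ptn (pleiotrophin, a secreted growth factor) 2.67. In Sncg the groups of week 4 overlapped.

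Among those with a negative interaction, the libraries labelled Δ/Δ were higher at week 1 and lower at week 4. Smpd3, the neutral sphingomyelinase needed for bone mineralization, had 46.0, 47.0 and 46.1 against 83.8, 78.4 and 79.0 CPM at week 1 and 219, 361 and 302 against 51.4, 50.2 and 55.4 CPM at week 4. It rose in wt/wt and fell with the label Δ/Δ (interaction -3.28, standard error 0.21, adjusted p = 4.42e-06). Gucy1a3, a subunit of the nitric oxide receptor that the reference names Gucy1a1, had 0.238, 0.351 and 0.498 against 1.51, 1.99 and 1.70 CPM at week 1 and 38.3, 36.5 and 36.7 against 22.3, 22.6 and 19.6 CPM at week 4. It rose in both genotypes, from a lower start and to a higher end in wt/wt (interaction -3.07, standard error 0.27, adjusted p = 3.14e-05). Bmper and Nog, both secreted BMP binders, had -1.85 and -2.07. Porcn (the enzyme that lipidates Wnt proteins) and Icam1 (an adhesion molecule for leukocytes) had -1.59 and -1.29.

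The remaining genes of this kind, named after their values were seen, were Itgbl1 (-2.47), Tspan18 (-2.46), Extl1 (-3.97), Adamts17 (-4.15), Grpr (-1.69) and Fam180a (-8.40). Several were low. Fam180a had 0 to 3 counts in each wt/wt library of week 1, 6 in all, so the size of its fitted value depends on the prior count and is no measured fold. The class was less stable than the interaction: 2 of the 23 genes, Plac8 and Ptgs1, kept the class in all 21 alternatives, Gucy1a3 and Porcn in 20, Pparg and Smpd3 in 13, Bst2 in 9, Grem1 in 8, Id1 in 6, Nog in 5 and Grpr in 1. The interaction itself passed in every alternative in which the gene was tested, for each of the 23. Gucy1a3, Ptn, Extl1, Adamts17, Fam180a and Oas1a were tested in 20, since a minimum of 10 counts in every library removed them.

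**Figure D3:**
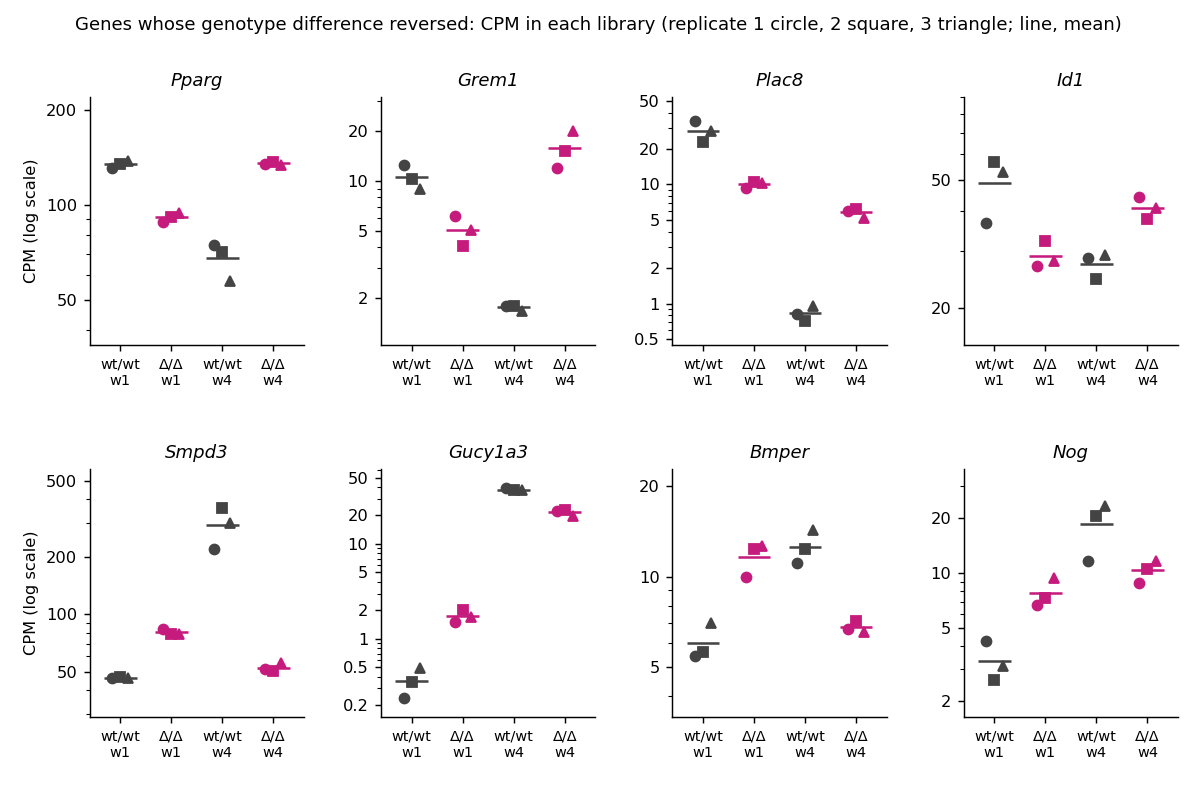
CPM (log scale) of 8 genes whose genotype difference changed sign, in each of the 12 libraries, with a line at the mean of each group of 3. Pparg, Grem1, Plac8 and Id1 are higher in wt/wt (grey) at week 1 and in the libraries labelled Δ/Δ (pink) at week 4, and Smpd3, Gucy1a3, Bmper and Nog the other way round.

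Mature osteoblast and mineralization genes had the most negative median interaction of the lists, while single genes of other lists had more negative values. They encode the matrix proteins, enzymes and channels of bone-forming cells, and rise late in osteoblast differentiation. Of 30 tested, 18 (60%, against 3.08% over all genes) had a negative interaction, 2 (6.67%, against 4.08%) a positive one and 10 did not pass. The median interaction was -1.56. At week 1 the median difference was 0.11 and 1 member was called, higher (0.752% over all genes). The median difference was -1.24 at week 4, with 19 lower (6.46% over all genes) and 4 higher (9.2% over all genes). The time changes of the genotypes were unequal, with medians of 1.49 in wt/wt and 0.00 with the label Δ/Δ: 19 members rose and 2 fell with time in wt/wt (17.9% and 16.1% over all genes), and 9 rose and 7 fell with the label Δ/Δ (18.8% and 16.3%). In bulk libraries, fewer cells of a type and less RNA per cell cannot be told apart. With a minimum of 10 counts in every library, which drops genes near 0 in one group, 11 members were negative.

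Ibsp (bone sialoprotein, chr5:104299287-104311472) had 191, 173 and 232 CPM in wt/wt and 242, 418 and 269 CPM with the label Δ/Δ at week 1. By week 4 it had 6031, 3217 and 3974 CPM in wt/wt and 706, 344 and 251 CPM with the label Δ/Δ. The libraries labelled Δ/Δ were all slightly higher at week 1, without a call, and all much lower at week 4 (interaction -3.98, standard error 0.51, adjusted p = 4.28e-04). Alpl, the alkaline phosphatase that frees phosphate for mineral, had 571, 555 and 564 against 755, 822 and 749 CPM at week 1 and 3012, 3623 and 3185 against 1782, 1412 and 1770 CPM at week 4. It rose in both genotypes, by 2.54 in wt/wt and 1.09 with the label Δ/Δ (interaction -1.44, standard error 0.17, adjusted p = 2.36e-04). Panx3, a channel of osteoblasts and hypertrophic chondrocytes, had 10.1, 9.09 and 10.3 against 13.1, 21.3 and 18.2 CPM at week 1 and 251, 193 and 206 against 20.9, 13.7 and 16.2 CPM at week 4, an interaction of -4.51 (standard error 0.28, adjusted p = 3.33e-06). It rose in wt/wt by 4.46 and had a change of -0.05 with the label Δ/Δ (adjusted p = 0.862).

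Factors that act earlier in the lineage split. Of 18 osteoblast transcription factors tested, 4 (22.2%, against 3.08% over all genes) had a negative interaction and 3 (16.7%, against 4.08%) a positive one. Dlx3, a homeobox factor of bone formation, was negative (-3.76, adjusted p = 2.64e-04), and Twist2, a repressor of osteoblast maturation, was positive (2.73, adjusted p = 1.79e-04). The collagens of bone, already counted among the negative genes of the mature osteoblast list, passed with less certainty. Col1a1 and Col1a2, the chains of type I collagen, had -1.87 (adjusted p = 0.0319) and -1.11 (adjusted p = 0.0301), and each lost its call in 10 of 21 alternatives. Col10a1, of hypertrophic cartilage, was positive (1.12, adjusted p = 0.00753). The cartilage list counted 4 negative (28.6%) and 2 positive (14.3%) of 14. Spp1 (osteopontin) and Sox9, the chondrocyte regulator, had -0.20 (adjusted p = 0.833) and 0.28 (adjusted p = 0.591).

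Other genes with large late falls relative to wt/wt were Serpinb2, Entpd3, Ptprz1, Spns2, Cdsn and Adgrd1. Serpinb2, an inhibitor of plasminogen activators, had 4.71, 10.3 and 6.62 against 10.4, 11.2 and 13.0 CPM at week 1 and 87.9, 32.9 and 86.7 against 2.64, 2.22 and 2.73 CPM at week 4. It rose in wt/wt and fell with the label Δ/Δ, an interaction of -5.44 (standard error 0.51, adjusted p = 5.07e-05). Entpd3, an enzyme that breaks down extracellular ATP, was at 0 to 0.642 CPM in every library except the wt/wt libraries of week 4. There it had 87.4, 65.7 and 50.7 CPM. With the other groups near 0, its fitted interaction of -8.74 (adjusted p = 0.0105) depends on the prior count and is no measured fold. The call was lost without replicate 2 labelled Δ/Δ of week 1. Ptprz1 (a receptor phosphatase that binds pleiotrophin, the product of Ptn) had -4.22, and Spns2, the exporter of sphingosine-1-phosphate, had -4.04. Nt5e (CD73, which makes adenosine), a marker used for MSCs, had 11.5, 12.2 and 13.1 against 15.2, 18.8 and 18.1 CPM at week 1. At week 4 it had 40.3, 31.5 and 31.0 against 9.44, 10.8 and 9.08 CPM (interaction -2.32, adjusted p = 2.81e-05). The mesenchymal stromal markers went both ways. Of 17 tested, 4 were positive, among them Grem1 (4.22), Eng (4.15) and Vcam1 (1.48), and 3 negative, with a median of 0.16. These are 23.5% and 17.6%, against 4.08% and 3.08% over all genes.

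Among lipid genes most did not pass, and those that did were mostly positive for fat cell regulators, storage and oxidation and negative for cholesterol synthesis. Of 19 adipocyte transcription factors, 5 (26.3%, against 4.08% over all genes) had a positive interaction and none a negative one. Beside Pparg, the 5 included Prdm16 (1.23), Ebf2 (1.14) and Klf15 (1.05). Prdm16 and Ebf2 are regulators of thermogenic fat, and both fell with time in wt/wt and had no called change with the label Δ/Δ. Klf15 lost its call in 13 of 21 alternatives. Lpl, the lipoprotein lipase that frees fatty acids for uptake, had 613, 521 and 657 against 647, 480 and 447 CPM at week 1 and 239, 280 and 263 against 1031, 1371 and 1253 CPM at week 4. The groups overlapped at week 1 and were far apart at week 4, since Lpl fell in wt/wt and rose with the label Δ/Δ (interaction 2.41, standard error 0.23, adjusted p = 5.01e-05). Aqp7, a glycerol channel, and Rbp4, a retinol carrier secreted by fat cells, had 2.41 and 2.12, and Mgll, which splits monoglycerides, had -2.31. In all, 4 of 33 genes of lipid uptake and storage were positive (12.1%, against 4.08% over all genes) and 1 negative (3.03%, against 3.08%). Cd36, a fatty acid transporter, had 0.63 (adjusted p = 0.659) and Adipoq (adiponectin) 1.23 (adjusted p = 0.155), neither past the test.

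Of 31 genes of fatty acid oxidation, 4 were positive (12.9%, against 4.08% over all genes) and none negative, with small effects. Pdk4, which shifts cells from glucose to fat as fuel, had 1.00. The dehydrogenases Acadm and Acadl had 0.77 and 0.56, calls that were lost in 8 and 13 of 21 alternatives. Cpt1a, the gate of entry into mitochondria, had 0.22 (adjusted p = 0.728). Cholesterol synthesis genes counted 6 negative (24%, against 3.08% over all genes) and none positive of 25, with a median of -0.43. Mvd, an enzyme of the mevalonate steps, had -0.82 (adjusted p = 0.00814). It fell with time with the label Δ/Δ and had no called change in wt/wt. Without replicate 3 of wt/wt at week 1, 2 of the 25 passed, and without replicate 1 or 3 labelled Δ/Δ of week 1, 3 did.

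Vascular and matrix genes went both ways, and among single genes Eng, Angpt2 and Aspn had large positive interactions. Eng (endoglin, chr2:32646595-32682669), a TGF-β co-receptor, had 33.1, 42.2 and 45.5 against 45.9, 39.8 and 39.9 CPM at week 1 and 3.44, 6.19 and 5.46 against 80.9, 99.7 and 102 CPM at week 4. It fell in wt/wt by 2.98 and rose with the label Δ/Δ by 1.17 (interaction 4.15, standard error 0.27, adjusted p = 4.75e-06). Angpt2, a ligand of the TIE2 receptor, had 44.9, 43.7 and 52.8 against 54.5, 47.7 and 44.7 CPM at week 1 and 35.8, 35.0 and 25.0 against 377, 345 and 395 CPM at week 4 (interaction 3.49, standard error 0.21, adjusted p = 3.33e-06). Both overlapped between genotypes at week 1. Of 25 angiogenic factors and receptors, 8 were positive (32%, against 4.08% over all genes) and 6 negative (24%, against 3.08%). Angpt4, another TIE2 ligand, had -1.39 and Flt4, a VEGF receptor, -2.61, while Vegfc, a ligand of that receptor, had 1.11.

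Aspn (asporin), a small leucine-rich proteoglycan that binds collagen and TGF-β, had 58.8, 50.9 and 82.5 against 65.2, 61.6 and 52.7 CPM at week 1 and 1.79, 2.02 and 5.18 against 93.7, 103 and 74.2 CPM at week 4. It fell by 4.35 in wt/wt and had a change of 0.59 with the label Δ/Δ (adjusted p = 0.131), an interaction of 4.94 (standard error 0.44, adjusted p = 3.40e-05). Lum (lumican) took the other route to the same pattern. It rose by 3.59 with the label Δ/Δ and had a change of -0.15 in wt/wt (adjusted p = 0.839), an interaction of 3.75 (adjusted p = 0.00286). Of 12 proteoglycans of the family, 3 were positive (25%, against 4.08% over all genes) and none negative. Of 28 matrix proteases and TIMPs, 3 were positive (10.7%), among them Mmp11 (1.18). In that list 5 were negative (17.9%, against 3.08% over all genes), among them Timp3 (-1.66), an inhibitor of metalloproteases.

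**Figure D4:**
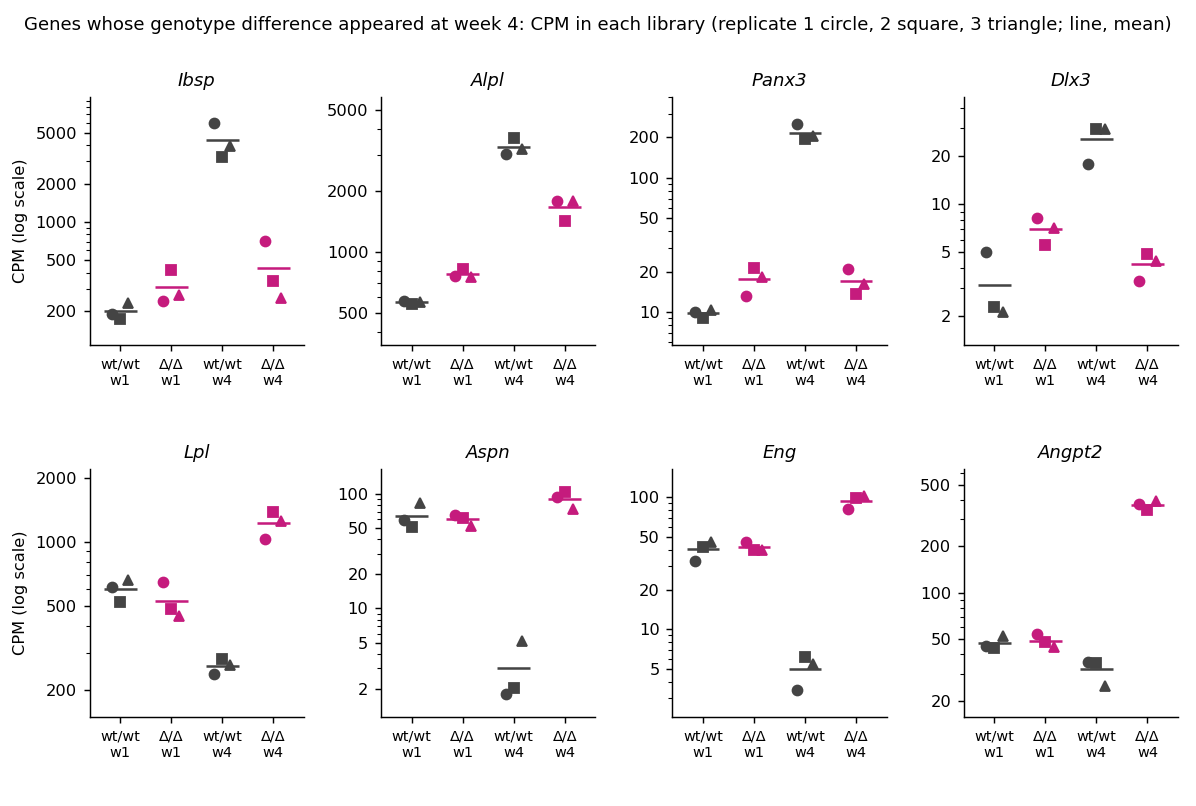
CPM (log scale) of 8 genes whose genotype difference was called at week 4 and not at week 1, in each of the 12 libraries, with a line at the mean of each group of 3. Ibsp, Alpl, Panx3 and Dlx3 end higher in wt/wt (grey), and Lpl, Aspn, Eng and Angpt2 end higher in the libraries labelled Δ/Δ (pink).

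Factors of the blood stem cell niche were positive in 4 of 16 (25%, against 4.08% over all genes) and negative in none, with a median of 0.58. Vcam1, which tethers blood cells to stroma, had 88.7, 81.7 and 109 against 127, 97.9 and 92.4 CPM at week 1 and 149, 168 and 163 against 429, 572 and 516 CPM at week 4 (interaction 1.48, standard error 0.22, adjusted p = 0.00114). Il15, a cytokine of NK and T cells that interferon also raises, had 2.81 (adjusted p = 2.74e-04). Kitl (stem cell factor) and Il7, the growth factor of early B cells, had 1.03 (adjusted p = 0.0509) and 0.91 (adjusted p = 0.0642), with 95% intervals of 0.40 to 1.65 and 0.33 to 1.49. Cxcl12, which retains blood stem cells, had 0.46 (adjusted p = 0.288), and Angpt1 0.50 (adjusted p = 0.48).

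In the TGF-β and BMP pathway 9 of 51 genes were positive (17.6%) and 6 negative (11.8%), among them the reversing genes Grem1, Nog and Id1. In the Wnt pathway 6 of 50 were positive (12%) and 3 negative (6%). Over all genes, 4.08% were positive and 3.08% negative. The Wnt5a receptors Ror1 and Ror2 had 1.97 and 2.02 by different routes: Ror1 rose with the label Δ/Δ, and Ror2 fell in wt/wt. Tcf7, a nuclear partner of β-catenin, had -2.75 and Wnt10b, a ligand that favours bone over fat, -1.78.

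Limb and axial patterning factors were positive in 6 of 21 (28.6%, against 4.08% over all genes) and negative in 1 (4.76%, against 3.08%). Tbx3 (2.60) and Meis1 (1.20) fell with time in wt/wt, and Tbx3 had no called change with the label Δ/Δ while Meis1 fell by less. Among 23 Hox genes 3 were positive and 3 negative (13.0% each), with Hoxc13 at 1.14 and Hoxa11 at -1.48. Of 14 CDK inhibitors and senescence genes, 2 were positive (14.3%). Among them, Cdkn1c (p57) had 14.5, 13.7 and 15.2 against 10.3, 7.41 and 11.4 CPM at week 1. At week 4 it had 1.79, 0.852 and 1.42 against 5.28, 5.33 and 6.54 CPM (interaction 2.69, adjusted p = 2.45e-04). Stress genes of the ATF4 pathway, Trib3 and Chac1, had -2.95 and -2.08, rising in wt/wt and falling with the label Δ/Δ.

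The effect vanished for 20 genes, 15 higher and 5 lower at week 1 with the label Δ/Δ, and for 16 of them the 95% interval of the week 4 difference lay within 1 of 0. In 11 of the 20 the level rose with time in both genotypes. Susd2, a surface protein used to sort stromal stem cells, had 28.1, 26.6 and 28.3 against 75.2, 81.4 and 81.7 CPM at week 1 and 128, 197 and 159 against 121, 154 and 180 CPM at week 4. The libraries labelled Δ/Δ were ahead at week 1, and by week 4 the groups overlapped at a higher level (interaction -1.61, standard error 0.23, adjusted p = 9.63e-04). Fap (fibroblast activation protein) was the mirror image, with 5.63, 6.63 and 6.62 against 2.42, 2.87 and 2.86 CPM at week 1 and 37.5, 38.0 and 37.8 against 33.7, 37.0 and 30.2 CPM at week 4, where its difference of -0.17 did not pass (interaction 1.03, standard error 0.18, adjusted p = 0.00327).

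Csgalnact1, which starts chondroitin chains, and Sh2d4a had -1.46 and -2.84. Lyz2 (lysozyme, -1.43) is also a macrophage marker. It had 0.804 to 0.897 CPM in wt/wt and 2.46 to 3.15 CPM in its counterparts at week 1, then 11.2 to 17.7 CPM at week 4. The macrophage list summed higher with the label Δ/Δ than in wt/wt at week 1, at 19.7 to 22.2 against 12.4 to 14.6 CPM. At week 4 the sums overlapped, at 25.6 to 28.9 against 19 to 26.6 CPM. Of its 18 genes, 12 were under 1 CPM in every library, and 4 of these (Tyrobp, C1qa, C1qc and Aif1) were at 0. Of the 6 tested, 2 were called higher at week 1 (0.752% over all genes). Susd2, Fap, Csgalnact1, Sh2d4a and Lyz2 kept the class in all 21 alternatives. Spry1 (-0.71), an inhibitor of growth factor signalling, kept it in 15.

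A further list held immediate-early genes, which respond within minutes to growth factors or stress, together with other stress genes. Of this list 1 member vanished: Nr4a1, a nuclear receptor. Sgk1 (a kinase) and Btg2 (on the p53 target list), which were not on that list, also were lower with the label Δ/Δ at week 1 only, and are set beside it after their values were seen. Nr4a1 had 19.3, 246 and 208 CPM in the wt/wt libraries of week 1, and 20.5, 18.5 and 22.8 CPM in those labelled Δ/Δ, so replicate 1 of wt/wt lay at the level of the other genotype. Sgk1 had 134, 425 and 450 against 116, 105 and 109 CPM, and Egr1, which passed at neither week (interaction 2.27, adjusted p = 0.0168), had 251, 1071 and 855 against 237, 247 and 238 CPM. Of 27 genes of the list 5 were positive (18.5%, against 4.08% over all genes) and 2 negative (7.41%, against 3.08%). The 2 negative ones were Trib3 and Chac1, the stress genes of the ATF4 pathway named above. Without replicate 1 of wt/wt at week 1, 13 were positive. With the 2 libraries highest in interferon-stimulated genes left out, 1 was, and leaving out any 1 of 8 other libraries gave 2 or 3. Nr4a1 lost its interaction call in 14 of 21 alternatives.

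In 11 genes, named after their values were seen, the difference kept its direction and changed in size, and in 9 of these it grew from week 1 to week 4 with the label Δ/Δ higher at both. Nov (CCN3), a matricellular protein, had 11.6, 10.1 and 12.1 against 23.6, 22.6 and 19.7 CPM at week 1 and 6.13, 5.88 and 8.19 against 103, 100 and 71.5 CPM at week 4 (interaction 2.80, standard error 0.24, adjusted p = 3.04e-05). Chrdl1, a BMP antagonist, Fbln7 and Fzd4, a Wnt receptor, had 0.92, 1.39 and 0.99. Gdf10, a TGF-β family ligand, was the one that shrank with the label Δ/Δ higher, from 2.13 at week 1 to 1.01 at week 4, an interaction call lost in 9 of 20 alternatives, and Ugt1a6b, of a cluster of near-identical copies, shrank with the label Δ/Δ lower.

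Groups that could be asked about in cells labelled as lacking a shelterin subunit are given with their counts, to be read against 7.15% of all genes tested, which is about 1 call in a list of 18. Of 18 shelterin and telomerase genes none passed the interaction test, of 40 proliferation and mitosis genes none, of 32 p53 targets 1 (Btg2), of 44 DNA damage and repair genes 1 (Lig1, DNA ligase 1, 0.78, lost in 9 of 21 alternatives), of 62 respiratory chain genes none and of 83 cytosolic ribosomal protein genes 1 (Rpl39l). At an unadjusted p under 0.05 in edgeR, 2427 of all 13169 genes tested passed. So did 3 of 18 shelterin and telomerase genes, 12 of 40 proliferation genes and 2 of 62 respiratory chain genes. With DESeq2 and its adjusted p, 1, 3 and 0 of these lists passed, and 1276 over all genes. Of the proliferation genes, 39 of 40 fell with time in each genotype, with medians of -2.08 in wt/wt and -1.76 with the label Δ/Δ. Over all genes tested, 16.1% fell in wt/wt and 16.3% with the label Δ/Δ. A call missed here does not show equal effects: the median interaction of that list was 0.33. No gene of it was called at week 1. For 22 of the 40, every library labelled Δ/Δ was then below every wt/wt library (55%, against 10.8% of all genes tested), and 0 were above. At week 4, 2 were below in this way (5%, against 11.8%) and 4 above (10%, against 15.5%). Of the 44 DNA damage and repair genes, 11 were below at week 1 (25%) and 0 above. At week 4, 4 of them were below (9.09%) and 1 above (2.27%).

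**Figure D5:**
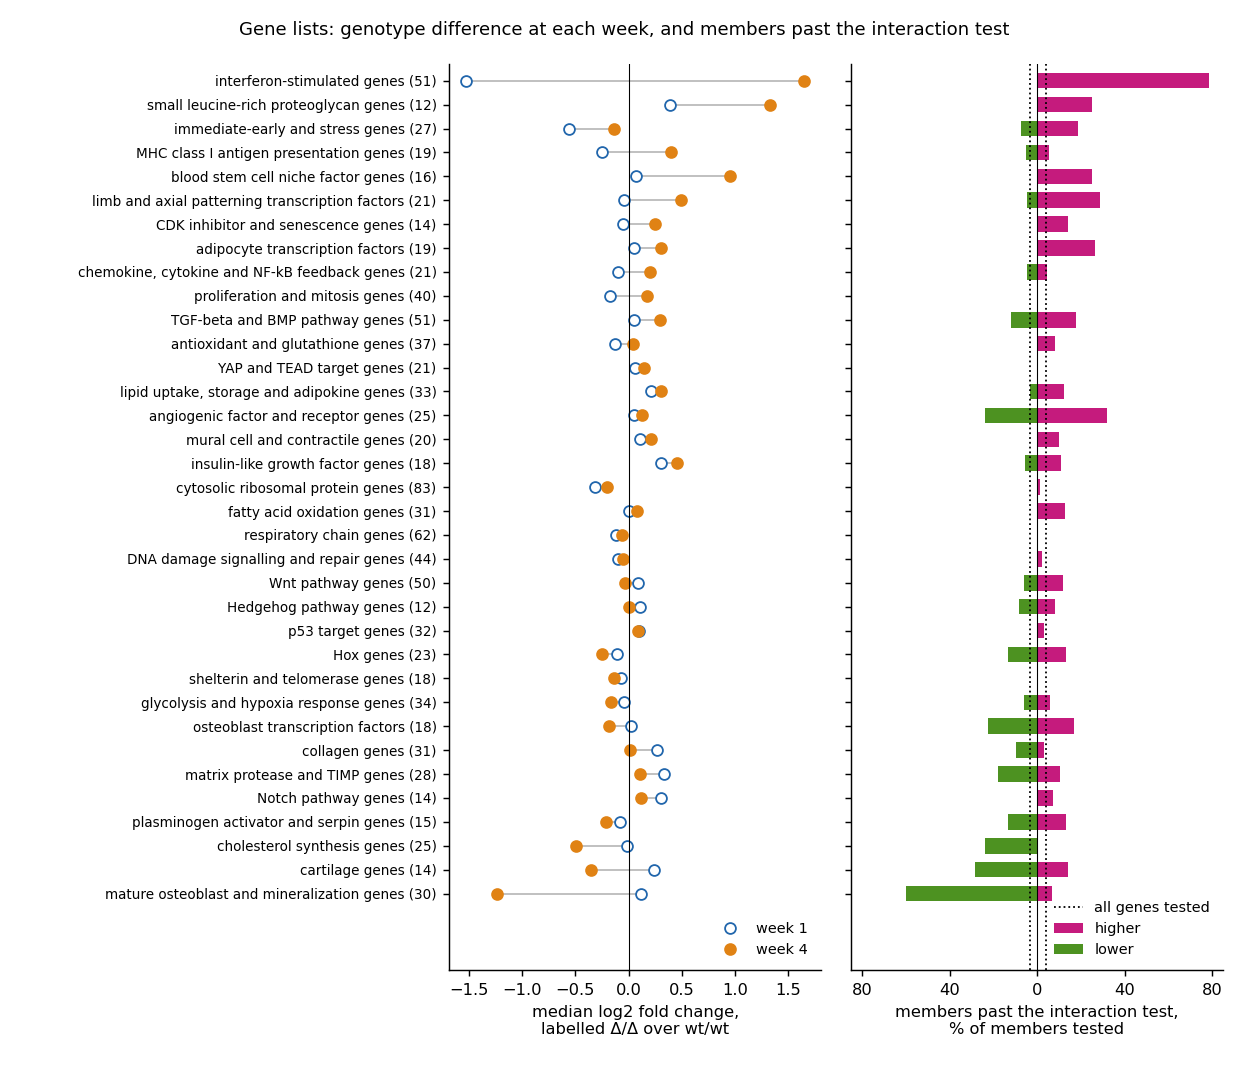
Left, median log2 fold change from wt/wt to the Δ/Δ label at week 1 (open) and week 4 (filled) for 35 gene lists, with the number of members tested in brackets. Right, the percentage of those members with a higher (pink) or lower (green) interaction past the test, with dotted lines at the 4.08% and 3.08% of all genes tested. Interferon-stimulated genes are at the top and mature osteoblast genes at the bottom of both.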

How the data were processed

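Each of the 12 culture libraries was made with SMART-Seq v4 and Nextera XT, which do not keep strand, and, per the labels and the study's methods, was aligned to mm10 with HISAT2 2.0.4 and counted per gene with featureCounts 1.6.3. The values used are the raw counts per gene symbol as the authors deposited them. The 6 libraries of freshly sorted cells were not used here. Of 24421 symbols, 13169 passed filterByExpr (minimum count 10). TMM factors and the quasi-likelihood test of edgeR 4.0.16 (R 4.3.3) were used on 4 group means over all 12 libraries, with contrasts for the interaction, for genotype at each week and for time in each genotype. P-values were two-sided and adjusted by Benjamini-Hochberg over all genes tested (threshold 0.05), and every adjusted p in the text comes from this fit unless DESeq2 1.42.0 is named. The test was run on simulated counts first. CPM are counts scaled by the TMM-adjusted library size. Total counts ranged from 12807832 to 90717232, and replicate libraries differed beyond sampling noise (chi-square per degree of freedom 10.4 to 98.4).

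A gene appears when called at week 4 only, vanishes when called at week 1 only and reverses when called at both with opposite sign, in each case past the interaction test. Genes were named as those with the largest interaction of each class (mean log2 CPM of at least 3, waived in classes with few genes), up to 4 members of each list, and genes named by the study. The rest are marked as named after their values were seen. The members and lists were chosen with earlier results of these data known. Same-numbered libraries deviated together between weeks in wt/wt (correlations of 0.152 to 0.220) and not throughout in the others (-0.238 to 0.177), so numbers were not taken to pair libraries. Alternatives were other normalizations, filters, DESeq2, replicate blocks, thinned counts, each library left out, and, chosen after seeing the data, the 2 libraries highest in interferon-stimulated genes left out. Coordinates and promoters are from RefSeq (GRCm38.p6). Some genes are not reported here.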

Additional observations from a re-analysis of the deposited data

Results flagged for a closer look

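The genotype effect differed between week 1 and week 4, by the interaction test, in 942 genes. In 22 of these the sign turned with both weeks called (Oas1a was left out of this count, since the wt/wt libraries of week 4 held 3 counts of it in all). The interactions on the log2 scale were 4.29 for Bst2, 4.27 for Plac8, 4.22 for Grem1, 2.91 for Slfn5, 2.67 for Ptn, 2.23 for Sncg, 1.56 for Pparg, 1.33 for Ptgs1, 1.33 for Adgrg2 and 1.32 for Id1 on the positive side. On the negative side they were -1.29 for Icam1, -1.59 for Porcn, -1.69 for Grpr, -1.85 for Bmper, -2.07 for Nog, -2.46 for Tspan18, -2.47 for Itgbl1, -3.07 for Gucy1a3, -3.28 for Smpd3, -3.97 for Extl1, -4.15 for Adamts17 and -8.40 for Fam180a, a fitted value that rests on 6 counts in all in the wt/wt libraries of week 1 and is no measured fold. With 3 libraries in each group, no search for outlying libraries by their gap was made.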

How the results depend on the processing

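Against 942 interaction calls, the 12 fits that each left out 1 library gave 647 to 1248, week 1 calls 49 to 257 in place of 134, vanishing genes 8 to 49 in place of 20 and reversing genes 5 to 43 in place of 23. Without a filter 33 genes vanished and 40 reversed, and with at least 10 counts in every library week 1 gave 85 calls and 12 genes reversed. DESeq2 gave 453 calls at week 1, 71 vanishing and 92 reversing genes, and 1276 interaction calls, of which 931 were among the 942. The replicate block gave 886 interaction calls (833 shared), and the replicate block within each genotype 832 (747 shared), with 82 calls at week 1 and 14 reversing genes. Of the genes named, Acadl, Klf15, Nr4a1 and H2-T24 lost their interaction call under both blocks, and Btg2, Col1a2, Egr1, H2-K1, Lig1, Spry1 and Vegfc under the block within each genotype. Counts thinned to the lowest depth gave 773 interaction calls and 13 reversing genes. With the 2 libraries highest in interferon-stimulated genes left out there were 607 interaction calls (347 positive, 260 negative), 50 calls at week 1, 10 vanishing and 8 reversing genes. At an adjusted p of 0.01 there were 508 (284 and 224), with 40 calls at week 1, 1228 at week 4, 251 and 202 appearing, 9 vanishing and 4 reversing genes. Of the 351 negative appearing genes, 214 had a week 1 interval within 1 of 0. The cause of these moves was not tested.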
